A study of Mus musculus with 2 samples.

Results

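The collagen genes were followed through every class of cells of the mouse anterior eye segment, in 1 single-cell RNA library of Control mice and 1 of NC-Foxc2-/- mice. Members were all genes whose symbol has the form of a collagen chain, Col with a type number and an alpha chain number, and which had at least 50 UMIs (unique molecular identifiers, each standing for 1 captured RNA molecule) over both libraries. 42 of the 44 such symbols qualified, among 32285 genes in all. Just outside the limit were Col19a1 with 49 UMIs and Col6a4 with 21, and the member nearest to it was Col22a1 with 164. The members fall into 11 fibrillar collagens, 9 network-forming collagens, 9 collagens of the basement membrane and its zone, 8 FACIT collagens (fibril-associated collagens with interrupted triple helices) and 4 transmembrane collagens, with Col26a1 outside these groups.

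Both groups of mice were of mixed strain, labelled 4 weeks of age, and carried the floxed allele of the transcription factor gene Foxc2 on both chromosomes (Foxc2 flox/flox). The NC-Foxc2-/- mice also carried Wnt1Cre (Foxc2 flox/flox;Wnt1Cre+), a Cre recombinase that acts in the neural crest and its derivatives, so cells of other origins should keep the intact floxed allele. In the eye, corneal keratocytes, the corneal endothelium, the trabecular meshwork and the perivascular cells descend largely from the neural crest, whereas vascular endothelium, surface epithelium and macrophages do not. Each library was made from anterior segments without iris, pooled from 4 to 6 mice. A difference between the libraries thus has no replicate check, and no test of genotype was possible. For the NC-Foxc2-/- library the paper selected mice with moderate ocular phenotypes, described as opaque eyes, so mild and severe eyes are not covered.

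Collagens are secreted or membrane-bound proteins of 3 alpha chains wound into a triple helix, which requires glycine at a fixed spacing along each chain. Fibrillar collagens have a long unbroken helix and assemble into the fibrils of cornea, sclera and skin, FACIT collagens sit on the surface of such fibrils, and type IV collagen forms the sheet-like network of basement membranes. In the anterior segment the transparent corneal stroma is built from regularly spaced type I and type V fibrils, Descemet's membrane holds type IV and type VIII collagen, and the trabecular meshwork is made of beams with a collagen core.

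The repeat that defines the family can be read in the coding sequences of members of different groups, which are shown because the members were chosen by symbol alone. Each stretch below spans 30 codons of the longest open reading frame of the GENCODE vM21 transcripts, written 5′ to 3′, with the glycine codons in capitals. The genes are Col1a1 (chr11:94936224-94953042, plus strand, GRCm38), Col6a1 (chr10:76708792-76726168, minus strand), Col4a1 (chr8:11198423-11312826, minus strand), Col12a1 (chr9:79598991-79718831, minus strand) and Col17a1 (chr19:47646344-47692094, minus strand).
Col1a1, fibrillar, codons 168 to 197: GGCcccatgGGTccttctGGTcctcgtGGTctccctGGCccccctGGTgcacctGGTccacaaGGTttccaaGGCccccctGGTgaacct
Col6a1, network, codons 256 to 285: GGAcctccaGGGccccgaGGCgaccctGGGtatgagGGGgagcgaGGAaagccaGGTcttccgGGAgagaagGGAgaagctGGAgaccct
Col4a1, basement membrane, codons 43 to 72: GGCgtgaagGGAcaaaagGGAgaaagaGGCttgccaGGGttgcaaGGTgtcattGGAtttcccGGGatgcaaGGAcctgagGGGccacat
Col4a1, further along, codons 148 to 177: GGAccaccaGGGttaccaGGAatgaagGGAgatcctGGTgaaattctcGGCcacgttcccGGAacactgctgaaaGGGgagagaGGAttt
Col12a1, FACIT, codons 2805 to 2834: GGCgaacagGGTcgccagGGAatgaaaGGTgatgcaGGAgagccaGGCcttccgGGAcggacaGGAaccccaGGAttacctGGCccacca
Col17a1, transmembrane, codons 648 to 677: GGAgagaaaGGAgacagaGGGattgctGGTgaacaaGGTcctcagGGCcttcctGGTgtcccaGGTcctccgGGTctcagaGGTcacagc
In the second stretch of Col4a1 the spacing of the capitals changes, which shows interruptions of the repeat. The longest unbroken run held 216 to 344 triplets (glycine and 2 further residues) in the fibrillar members, 30 to 75 in those of the basement membrane and its zone, 28 to 87 in the network members, 32 to 113 in the FACIT members and 40 to 56 in the transmembrane members. Col1a1 had 338 triplets in its longest run, whereas Col4a1 had 40, with its helix split into 22 runs of at least 5 triplets. In Col12a1 only 8.22% of the codons lay in such runs, since most of this long chain is not collagenous. Col26a1, outside the groups, had a longest run of 23.

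2 pairs of type IV genes lie head to head, so that the promoters of both genes lie in a single stretch of DNA, which is shown because the expression of these pairs is compared across classes. The start sites of Col4a1 and Col4a2 are so close that the annotated genes overlap by 22 bases, and those of Col4a4 and Col4a3 are 72 bases apart. The RefSeq promoter windows (GRCm38.p6) of Col4a2 and Col4a4 are printed on the strand of the named gene, with capitals from one start site to the other.
Col4a2, chr8:11312555-11312854, plus strand: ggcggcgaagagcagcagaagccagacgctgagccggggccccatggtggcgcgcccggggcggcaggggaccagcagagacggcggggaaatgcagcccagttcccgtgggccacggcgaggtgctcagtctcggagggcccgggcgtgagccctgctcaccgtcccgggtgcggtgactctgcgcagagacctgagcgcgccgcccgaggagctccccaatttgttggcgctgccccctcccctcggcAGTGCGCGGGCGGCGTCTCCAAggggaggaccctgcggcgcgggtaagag
Col4a4, chr1:82586800-82587099, minus strand: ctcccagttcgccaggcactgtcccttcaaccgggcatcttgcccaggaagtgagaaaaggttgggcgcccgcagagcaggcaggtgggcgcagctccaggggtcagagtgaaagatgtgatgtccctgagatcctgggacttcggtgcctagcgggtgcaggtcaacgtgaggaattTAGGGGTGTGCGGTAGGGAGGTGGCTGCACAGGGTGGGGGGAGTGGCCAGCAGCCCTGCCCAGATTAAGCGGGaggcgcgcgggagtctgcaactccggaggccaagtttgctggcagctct
Counted on both strands, the Col4a2 window held 3 GC boxes (GGGCGG), 1 CCAAT box (CCAAT) and no TATA box (TATAAA), and the Col4a4 window held none of these 3 motifs. Of 32851 mouse promoters of this length, 35.7% held the GC box, 37.4% the CCAAT box and 13.6% the TATA box. Of the 33 members with a window, 21, 12 and 5 did. Col4a5 and Col4a6, the third pair, lie on chromosome X with start sites 1309 bases apart.

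The libraries held 120961479 (control) and 95704746 (NC-Foxc2-/-) UMIs, and 10773 and 10872 cells passed a limit of 8% mitochondrial UMIs, with medians of 7663 and 6517 UMIs per cell. 52 cell barcodes occurred in both libraries, and 3.98% and 4.66% of the cells were called as doublets and kept. Foxc2 itself was lower in the NC-Foxc2-/- library in 9 of the 11 classes compared, from 130 to 2.41 CPM (a gene's UMIs per 1000000 UMIs of the class) in pericyte-like cells and from 46.7 to 0.670 CPM in fibroblasts. Keratocyte-like cells, in which Foxc2 stood at 4.38 and 9.89 CPM, and corneal epithelial-like cells, with 0 and 5 UMIs, were the exceptions. Endothelial cells, which do not descend from the neural crest, were among the 9 lower classes, at 25.2 and 4.64 CPM (56 and 8 UMIs). The reason was not tested. Which part of the gene the floxed allele removes, and whether the counted 3′ end lies within it, is not stated in the paper or the labels. TM-1, TM-2 and TM-3 (trabecular meshwork), uveal meshwork, fibroblasts and endothelial cells are the study's classes, and the other classes were clustered without the collagen genes and named for marker genes as "-like".

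Collagen messages took up 3.96% of all UMIs of the control library and 6.61% of those of the NC-Foxc2-/- library. Within the classes the share was highest in keratocyte-like cells, the cells of the corneal stroma, at 12.6% in the control (95% interval 12.6 to 12.6%) and 12.2% in the NC-Foxc2-/- library (12.2 to 12.2%). All intervals given here cover counting error only and say nothing of differences between mice. The 2 libraries thus had nearly the same share within these cells, and keratocyte-like cells were 1677 of the control and 2564 of the NC-Foxc2-/- cells. Fibroblasts followed among the classes that make a matrix, with 5.83% and 5.07%. TM-3 stood at 1.56% and 2.19%, TM-1 at 0.943% and 0.994%, TM-2 at 0.763% and 0.617%, and uveal meshwork at 0.481% and 0.552%. Among these 4 meshwork classes the libraries were furthest apart in TM-3, by a ratio of 1.41. Endothelial cells gave 0.323% in both libraries, and pericyte-like cells 0.448% and 0.563%. Erythrocyte-like cells, which make no collagen and so show the free RNA caught in every droplet, gave 0.0246% in the control and 0.0615% in the NC-Foxc2-/- library.

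**Figure D1:**
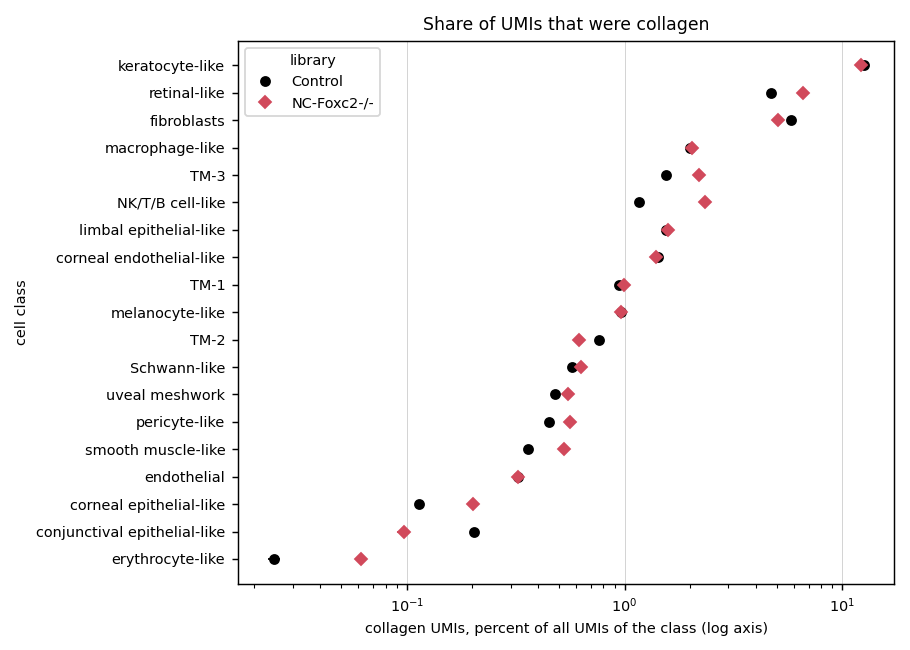
Share of all UMIs that came from the 42 collagen genes (percent, log axis) in each of the 19 classes, with exact 95% intervals for counting error. Black circles are the Control library and red diamonds the NC-Foxc2-/- library; keratocyte-like cells lie above 12% in both, and erythrocyte-like cells lie below 0.1% in both.

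The make-up of the collagen message differed between classes. Fibrillar collagens gave 86.0% of the collagen UMIs of keratocyte-like cells over both libraries, 89.9% of those of fibroblasts and 76.1% of those of TM-3. In endothelial cells they gave 25.2%, and the collagens of the basement membrane and its zone 64.5%. Every blood vessel lies on such a membrane. Among the cells of its wall, pericyte-like cells had 31.1% and smooth muscle-like cells 20.2% in this group. In both, unlike endothelial cells, fibrillar collagens gave the larger part, 54.9% and 59.6%. Schwann-like cells had 24.3% in the basement membrane group. Corneal endothelial-like cells, which lay down Descemet's membrane, were split between fibrillar (35.5%), basement membrane (35.0%) and network collagens (20.7%). The fibrillar part was uneven there: 9 of the 173 control cells held 93.1% of the Col1a1 UMIs while the median cell had 1, and fibrillar collagens stood at 5167 CPM in the control and 2194 CPM in the NC-Foxc2-/- library. The group of the basement membrane and its zone took different shares in the meshwork classes, with 4.71% in TM-3, 9.03% in TM-1, 11.8% in uveal meshwork and 15.2% in TM-2. Transmembrane collagens gave 78.5% of the collagen UMIs of corneal epithelial-like cells and 5.11% of those of uveal meshwork, against 0.069% in keratocyte-like cells.

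Of the 42 members, 14 had their highest level in keratocyte-like cells, 8 in corneal endothelial-like cells, 5 in fibroblasts, 4 each in melanocyte-like and Schwann-like cells, and 2 each in TM-2 and endothelial cells. Uveal meshwork, TM-3 and corneal epithelial-like cells each had 1. The melanocyte-like class also had Ptgds, Ttr, Rgr and Rlbp1, genes of pigmented epithelium, among its leading genes. A level here is the CPM of a class over both libraries, unless a library is named. Since UMIs were counted at the 3′ ends of transcripts they do not grow with transcript length, but capture can differ between genes, so that the order of genes within a class is only approximate.

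**Figure D2:**
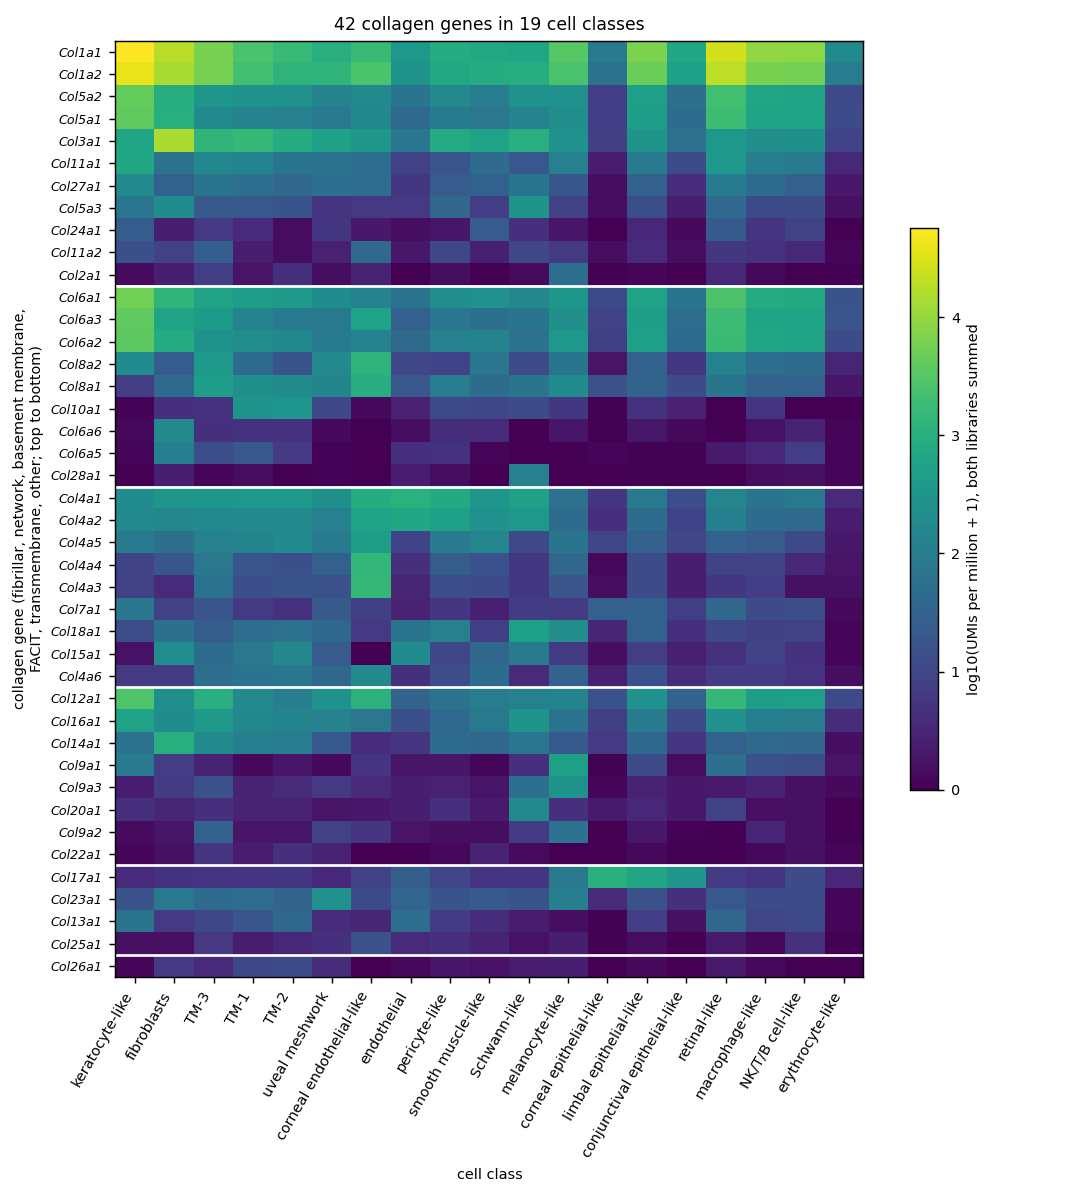
Level of each of the 42 collagen genes (rows, in their groups, with white lines between groups) in each of the 19 classes (columns), over both libraries, coloured by log10 of CPM plus 1. Most fibrillar rows, and those of Col6a1, Col6a2 and Col6a3, are brightest in keratocyte-like cells, whereas Col3a1 is brightest in fibroblasts. Col4a1 and Col4a2 are brightest in endothelial cells, Col4a3 to Col4a6 in corneal endothelial-like cells, and Col17a1 in the epithelial classes.

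Among the fibrillar collagens, Col1a1 and Col1a2, the 2 chains of type I collagen, the main protein of corneal and scleral fibrils, had the most UMIs of all members, 4918017 and 3483354. Col1a1 stood in keratocyte-like cells at 56806 CPM (95% interval 56749 to 56863), with 56321 in the control and 57148 in the NC-Foxc2-/- library. Fibroblasts had 17492 CPM and TM-3 6405 CPM. Col1a2 kept the order, with 39868 CPM in keratocyte-like cells, 14302 in fibroblasts and 6007 in TM-3. Retinal-like and macrophage-like cells also showed Col1a1, at 27006 and 9217 CPM, but unevenly among cells: the top 5% of cells held 96.4% of the Col1a1 UMIs of control and 79.1% of those of NC-Foxc2-/- macrophage-like cells, and 96.5% and 43.5% of those of retinal-like cells. The median cell had 0 Col1a1 UMIs in the control and 2 in the NC-Foxc2-/- library, in both classes. Kera, the keratocan of the corneal stroma, was found in the same classes, at 1732 CPM in the control and 2084 CPM in the NC-Foxc2-/- library for retinal-like cells and at 624 CPM in the control and 561 CPM in the NC-Foxc2-/- library for macrophage-like cells. The part of keratocyte RNA in these levels was not tested.

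Col5a1 and Col5a2 encode chains of type V collagen, which is buried within type I fibrils and limits their diameter. Col5a2 had 4193 CPM in keratocyte-like cells (4489 in the control, 3984 in the NC-Foxc2-/- library) and 915 in fibroblasts, and Col5a1 3872 (3639 and 4036) and 972. Both were therefore well above fibroblasts in the cells of the corneal stroma, in each library. Col3a1, the chain of type III collagen of pliable connective tissue, had the opposite order. It stood at 14013 CPM in fibroblasts (95% interval 13937 to 14089.5), with 16904 in the control and 12404 in the NC-Foxc2-/- library. TM-1 had 1537 CPM, TM-3 1276, Schwann-like cells 971, TM-2 890.3, pericyte-like cells 838 and keratocyte-like cells 628. Nearly every fibroblast held it, also when each cell was thinned to 1000 UMIs: 99.5% of the control and 96.3% of the NC-Foxc2-/- fibroblasts. Col11a1, a chain of type XI collagen that starts fibrils, had 704 CPM in keratocyte-like cells, 164 in TM-3 and 138 in TM-1. Of the less abundant fibrillar members, Col27a1 (17973 UMIs) and Col24a1 (2280) were highest in keratocyte-like cells, Col5a3 (9856) in Schwann-like cells, Col11a2 (1880) in corneal endothelial-like cells and Col2a1 (303) in melanocyte-like cells.

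The network group was led by the 3 chains of type VI collagen, which forms beaded filaments between fibrils and cells. Col6a1 had 5499.9 CPM in keratocyte-like cells (4804 in the control, 5991 in the NC-Foxc2-/- library), 1317 in fibroblasts and 549 in TM-3. Col6a2 had 3666 and 829.8 CPM in keratocyte-like cells and fibroblasts, and Col6a3 3847 and 607. The 3 chains shared the order of these classes. Type VIII collagen, the hexagonal lattice of Descemet's membrane, was found elsewhere. Col8a2 had 1235 CPM and Col8a1 897 in corneal endothelial-like cells, and TM-3 came next with 350.3 and 449.9. Below these 2 classes the chains parted: Col8a2 was followed by keratocyte-like cells at 201 CPM and uveal meshwork at 172, whereas Col8a1 was followed by TM-1 at 238 and TM-2 at 192.

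Col10a1, known as the type X collagen of growth plate cartilage, marked a pair of meshwork classes. TM-2 had 315 CPM (386 in the control, 255 in the NC-Foxc2-/- library) and TM-1 286 (343 and 211), while the next class, Schwann-like cells, had 11.4. None of the 974 control and 647 NC-Foxc2-/- erythrocyte-like cells held a Col10a1 UMI, which allows a share of up to 0.378% and 0.569% (exact 95% limits), and it was seen in 50% and 30.7% of TM-2 cells and in 42.5% and 27.1% of TM-1 cells. Col6a6 (1876 UMIs) and Col6a5 (1534) were highest in fibroblasts, and Col28a1 (395) in Schwann-like cells.

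In the basement membrane group, Col4a1 and Col4a2, the chains of the type IV collagen found in nearly all basement membranes, were highest in endothelial cells. Col4a1 had 1107 CPM there (1171 in the control, 1025 in the NC-Foxc2-/- library), 867 in corneal endothelial-like, 820.2 in pericyte-like and 534 in Schwann-like cells. Col4a2 followed with 684, 540.0, 518 and 337 CPM. The 4 classes all rest on a basement membrane or are wrapped in one. As UMIs per cell, both genes were highest in corneal endothelial-like cells instead. Of the endothelial cells, 97.6% in the control and 87.7% in the NC-Foxc2-/- library held a Col4a1 UMI, against 0.719% and 1.39% of erythrocyte-like cells.

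Col4a3 and Col4a4, which with Col4a5 form the type IV trimer of kidney glomerulus and Descemet's membrane, belonged to corneal endothelial-like cells. Col4a3 had 1494 CPM there (95% interval 1454 to 1534) and Col4a4 1424 (1385 to 1463). The next class, TM-3, had 60.03 and 74.3 CPM. Col4a5 had 461 CPM in corneal endothelial-like cells and 192 in TM-2, and its neighbour Col4a6 190.1 and 73.2. All 4 minor chains of type IV collagen thus had the same leading class. That class held 173 control and 9 NC-Foxc2-/- cells, so these levels come almost wholly from the control. Col7a1, the anchoring fibril collagen that ties epithelia to the stroma, was highest in keratocyte-like cells at 73.8 CPM (62.9 in the control, 81.6 in the NC-Foxc2-/- library), ahead of limbal epithelial-like cells at 28.6 and corneal epithelial-like cells at 27.6. Col18a1 (6366 UMIs), whose end fragment is endostatin, was highest in Schwann-like cells. Col15a1 (5826) was highest in fibroblasts, at 213 CPM against 205 in endothelial cells, and this order turned in the control library alone.

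Of the FACIT collagens, Col12a1, which bridges neighbouring fibrils, had 2734 CPM in keratocyte-like cells, 1136 in corneal endothelial-like cells and 942 in TM-3. Col16a1 had 542 CPM in keratocyte-like cells, 361 in TM-3 and 285 in Schwann-like cells. Col14a1, a fibril-associated collagen like type XII, had another place, with 945 CPM in fibroblasts (841 in the control, 1003 in the NC-Foxc2-/- library) and 188 in TM-3. Col12a1 and Col14a1 therefore split the stroma: the former led in the cells with the most type I collagen and the latter in those with the most type III collagen.

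Type IX collagen, known from cartilage and vitreous, was highest in melanocyte-like cells, a class that also held genes of pigmented epithelium. Col9a1 had 497 CPM and Col9a3 281 CPM in it. Col9a1 stood at 591 CPM in the control and 42.4 in the NC-Foxc2-/- library, and the class held 178 and 56 cells. Col9a3 stood at 236 and 497 CPM, the other way round. Melanocyte-like cells had too few cells in the NC-Foxc2-/- library for a comparison of the libraries. The second class of Col9a1 was keratocyte-like cells, at 92.8 CPM, and that of Col9a3 Schwann-like cells, at 52.5 CPM. Col20a1, a less studied member, had 189 CPM in Schwann-like cells. Col9a2 (836 UMIs) was highest in melanocyte-like cells and Col22a1 (164) in TM-3, on NC-Foxc2-/- UMIs alone, since in the control its highest class was uveal meshwork.

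The transmembrane collagens were each highest in a different class. Col17a1, the hemidesmosome collagen BP180 that fixes basal epithelial cells to their basement membrane, had 1059 CPM in corneal epithelial-like cells, 618 in limbal epithelial-like cells and 301 in conjunctival epithelial-like cells. It was seen in 97.6% of control and 94.9% of NC-Foxc2-/- corneal epithelial-like cells and in 0.616% of the erythrocyte-like cells of each library. Col23a1 was highest in uveal meshwork at 249.8 CPM (260.5 in the control, 232 in the NC-Foxc2-/- library), and it is among the markers by which the study named that class. Melanocyte-like cells had 108 CPM and fibroblasts 83.4. Col13a1, found at cell adhesions and at the neuromuscular junction, had 66.4 CPM in keratocyte-like cells and 51.5 in endothelial cells. Col25a1, a neuronal member, was low throughout, with 14.1 CPM in corneal endothelial-like cells and 5.03 in TM-3. Col26a1 (252 UMIs) was highest in TM-2.

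Chains that share a trimer were compared across the 19 classes on the log2(CPM + 1) scale, as a description. The classes share their libraries and the same free RNA. The chains of type I collagen, Col1a1 and Col1a2, had r = 0.99 (Spearman 0.98), those of type VI, Col6a1 and Col6a2, r = 0.99 (0.98), and those of type V, Col5a1 and Col5a2, r = 0.98 (0.96). The head-to-head genes Col4a1 and Col4a2 had r = 0.99 (0.94), Col4a3 and Col4a4 r = 0.96 (0.92), and Col4a5 and Col4a6 r = 0.91 (0.91). The remaining partners ran from a like closeness to a loose one. Col6a1 and Col6a3 had r = 0.92 (0.90), Col9a2 and Col9a3 r = 0.87 (0.89), Col8a1 and Col8a2 r = 0.63 (0.52), Col11a1 and Col11a2 r = 0.49 (0.46), and Col9a1 and Col9a2 r = 0.36 (0.24).

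The number of UMIs of a chain per UMI of its partner shows where partners part, on the assumption that a gene is captured alike in every class. For Col1a1 over Col1a2 it was 1.42 in keratocyte-like cells (95% interval 1.42 to 1.43), 1.22 in fibroblasts, 1.07 in TM-3 and 0.654 in corneal endothelial-like cells (0.633 to 0.675). The free RNA of erythrocyte-like cells had 1.76. Corneal endothelial-like cells thus had the lowest ratio of the 19 classes, as a sum in which 9 control cells hold most of the Col1a1. For Col6a1 over Col6a3 the ratio was 1.43 in keratocyte-like cells, 4.56 in smooth muscle-like cells and 0.229 in corneal endothelial-like cells. For Col8a1 over Col8a2 it ran from 0.0314 in keratocyte-like cells through 0.726 in corneal endothelial-like cells and 1.28 in TM-3 to 12.1 in TM-2. Keratocyte-like cells therefore had Col8a2 with little Col8a1, and TM-2 the reverse. For Col9a1 over Col9a2 the ratio was 246 in keratocyte-like cells and 0.0622 in TM-3. For Col11a1 over Col11a2 it was 52.1 and 6.57 in the same classes.

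**Figure D3:**
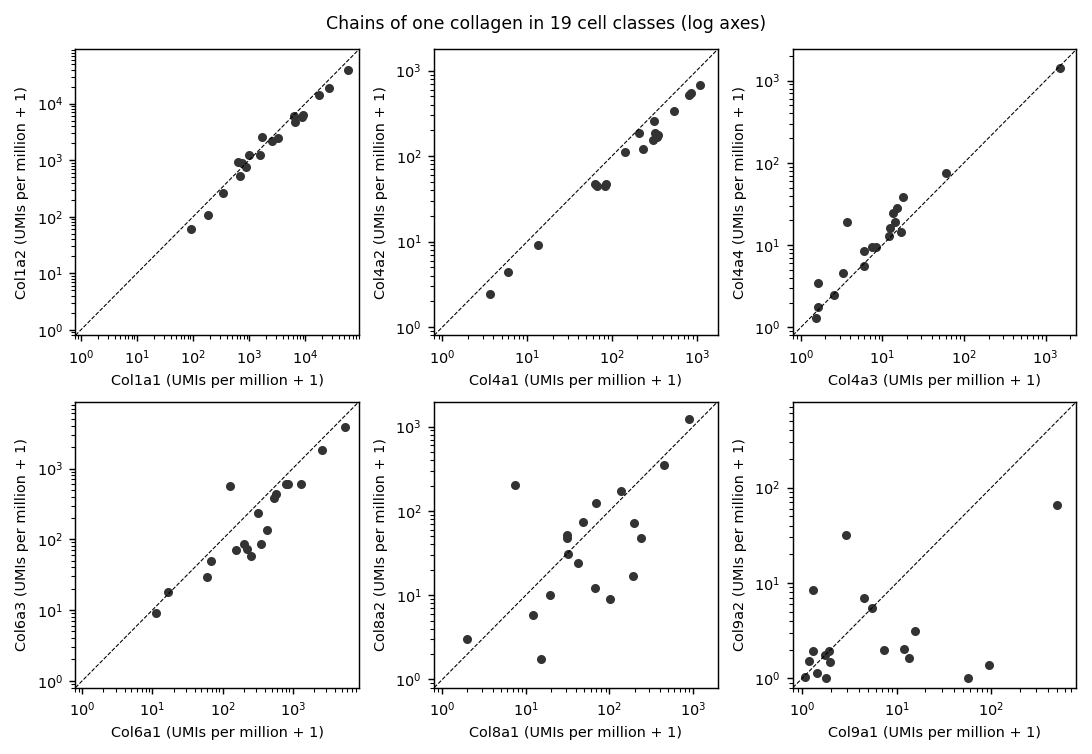
Levels of 6 pairs of partner chains (CPM plus 1, log axes) in the 19 classes, each point being a class over both libraries, with a dashed line where both chains are equal. Col1a1 and Col1a2, and Col4a1 and Col4a2, lie along a line (r = 0.99 each), whereas Col8a1 and Col8a2 (r = 0.63) and Col9a1 and Col9a2 (r = 0.36) scatter.

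Free collagen RNA set a floor that differed between the libraries. An erythrocyte-like cell held on average 0.433 Col1a1 UMIs in the control and 1.15 in the NC-Foxc2-/- library, which came to 113 and 287 CPM. Against the level of Col1a1 within a class, the free RNA per cell was 0.0471% and 0.133% in keratocyte-like cells, 25.3% and 20.7% in pericyte-like cells, and 45.2% and 30.7% in corneal epithelial-like cells. In the stroma it was therefore negligible, and in the classes low in collagen it was a large part of the type I signal. The share of cells with a Col1a1 UMI, after thinning to 1000 UMIs per cell, was 100.0% and 100.0% in keratocyte-like cells, 20% and 37.4% in macrophage-like cells, and 11.0% and 21.8% in erythrocyte-like cells. The median depth was 15883 and 14495 UMIs per cell in keratocyte-like, 4214 and 5718 in macrophage-like and 4015 and 4085 in erythrocyte-like cells. Unthinned, the erythrocyte-like share was 28.7% and 63.4%. For Col12a1 the thinned erythrocyte-like share was 0.336% and 2.56%, against 47.6% and 56.4% in TM-3, so the floor was far lower for this gene.

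The libraries were then set side by side within 11 classes. A member counted as higher in the NC-Foxc2-/- library when its CPM there, divided by that in the control, reached 2, and as lower when this ratio did not exceed 0.5. Only members with 50 UMIs or more in the class, both libraries summed, were judged. Among 285 pairs of member and class with that many UMIs, 34 were higher, 17 lower and 234 within 2-fold. Over the same classes 2.92% of all pairs of gene and class were higher and 2.49% lower, and corneal epithelial-like cells alone gave 10 of the 34 higher pairs. These are ratios of 2 libraries and not tests, and they are read against the share of all genes of the class past the same fold. The other 8 classes were left out because a library had few of their cells or because doublets were frequent (limbal epithelial-like). Further reasons were that Col1a1 lay in a few cells, or that the class served as the measure of free RNA. Uneven Col1a1 also occurred in compared classes. The top 5% of cells held 79.7% of its UMIs in control endothelial cells. In the NC-Foxc2-/- library they held 69.2% in pericyte-like and 67.7% in smooth muscle-like cells.

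**Figure D4:**
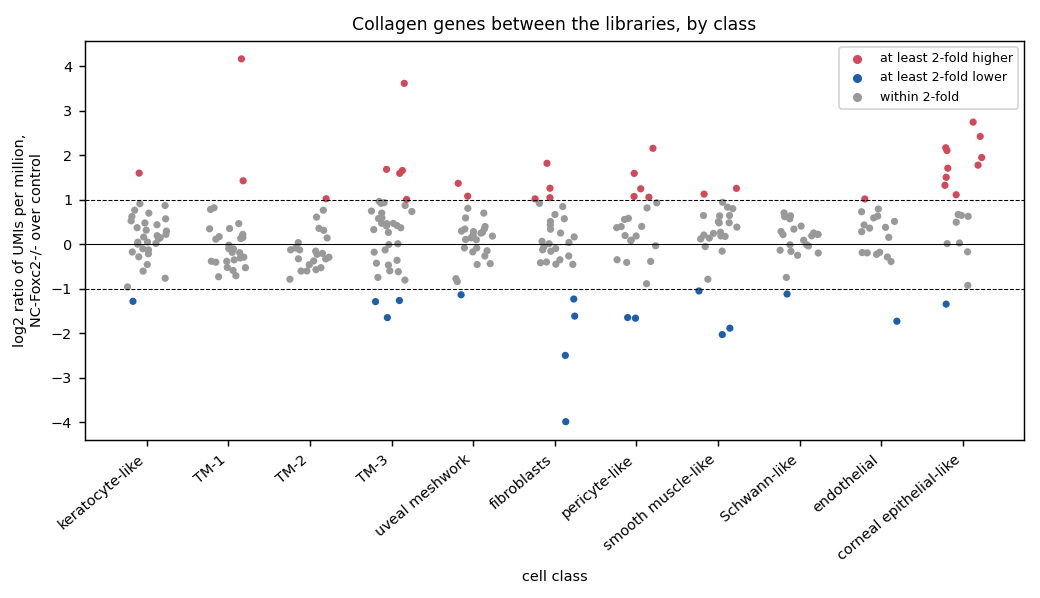
log2 of the ratio of CPM, NC-Foxc2-/- over control, of every member with at least 50 UMIs in each of the 11 compared classes, 1 point per gene. Red points are at least 2-fold higher, blue points at least 2-fold lower and grey points within 2-fold, with dashed lines at the 2-fold limits. Corneal epithelial-like cells have 10 red points of 19, TM-3 has 3 blue points, and keratocyte-like cells 1 red and 1 blue of 32. Col22a1, higher in TM-3, has no point there since its control value is 0.

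In keratocyte-like cells, the class with the highest share of collagen, nearly all members stayed within 2-fold. 1 of 32 was higher, where 2.31% of all genes were, and 1 was lower, where 1.32% were, and the median log2 ratio was 0.16 over the members and 0.00 over all genes. Col1a1 had a ratio of 1.01 and Col1a2 of 0.824, and Col12a1 went from 1936 to 3297 CPM, a ratio of 1.70 (1.69 to 1.72). The groups differed: 3 of 10 fibrillar members had a ratio above 1, with a median log2 ratio of -0.19, and 8 of 8 members of the basement membrane and its zone, with a median of 0.50. The higher member was Col4a3, with 3.39 and 10.3 CPM and a ratio of 3.04 (95% interval 2.42 to 3.85), at a low level. The lower member was Col11a2, the chain of type XI collagen that pairs with Col11a1, with 20.7 and 8.50 CPM and a ratio of 0.412 (0.358 to 0.472). Its partner Col11a1 had 984 and 507 CPM, a ratio of 0.515, just within the limit.

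Of the TM-3 cells, 79.3% in the control and 52.5% in the NC-Foxc2-/- library lay in the juxtacanalicular-like rebuilt cluster. A further 13.8% and 37.1% lay in an unnamed cluster, cluster 3. TM-3 had the largest number of measured members. Of 37, 6 were higher (3.64% of all genes) and 3 lower (2.29%), and the median log2 ratio was 0.42 over the members and 0.06 over all genes. Of the 11 fibrillar members, 10 had a ratio above 1, with a median log2 ratio of 0.75. Col14a1 went from 86.6 CPM in the control to 274 CPM in the NC-Foxc2-/- library, a ratio of 3.16 (2.87 to 3.48), and was seen in 22.1% and 43.2% of cells. Col11a2 went from 11.3 to 36.5 CPM, a ratio of 3.22 (2.47 to 4.24), and Col5a3, the third chain of type V collagen, from 13.3 to 26.7, a ratio of 2.01 (1.55 to 2.63). Col6a5, a chain that can take the place of Col6a3, had 1.76 and 21.6 CPM, a ratio of 12.3 (6.69 to 25.1), from 3 control and 39 NC-Foxc2-/- cells. Such a ratio rests on few cells. The lower members included the partners Col9a2, with 44.9 and 18.4 CPM and a ratio of 0.410 (0.331 to 0.504), and Col9a3, with 20.3 and 8.46 CPM and 0.417 (0.303 to 0.568). Col2a1 and Col22a1 (higher) and Col25a1 (lower) passed with fewer than 100 UMIs and are named because they complete these counts. Col22a1 had 0 UMIs in the control and 58 in 19 of the 1142 NC-Foxc2-/- cells, at least 16.2-fold higher when 3 counts are taken as the limit of a count of 0.

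Within 2-fold in TM-3 were the abundant fibril chains, Col1a1 with 4773 and 7776 CPM (ratio 1.63) and Col3a1 with 879 and 1610.4 (ratio 1.83). Col6a1 had a ratio of 1.89. Kera, a gene of the corneal stroma, stood in TM-3 at 29.9 CPM in the control and 102 CPM in the NC-Foxc2-/- library. The keratocyte list of 5 genes, which includes Kera, summed to 1736 and 1446 CPM, none at 0. Lum, also on that list, gave most of both sums, with 1471 and 1133 CPM. The part of keratocyte RNA in these ratios was not tested. Col4a3 and Col4a4, with ratios of 0.597 and 0.573, went the other way. Markers of corneal endothelium, the class in which these chains are highest, summed to 504 CPM in the TM-3 cells of the control and 429.9 CPM in those of the NC-Foxc2-/- library, none of the 5 at 0. Corneal endothelial-like cells were 173 in the control and 9 in the NC-Foxc2-/- library. Their part in these ratios was not tested.

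In TM-1, 2 of 29 members were higher (2.24% of all genes) and 0 lower (1.70%), with a median log2 ratio of -0.09 over the members and -0.02 over all genes. Col14a1 was among the higher, from 64.8 to 175 CPM, a ratio of 2.69 (2.30 to 3.16). Col6a5 was the other, from 2.16 to 38.9 CPM, a ratio of 18.0 (8.83 to 42.7), and its UMIs came from 2 of 609 control and 22 of 499 NC-Foxc2-/- cells. The fibrillar chains were near 1, as with Col3a1 at 1584 and 1475 CPM. Col10a1, which marks TM-1 and TM-2, had ratios of 0.614 (0.556 to 0.677) and 0.661 (0.566 to 0.772) in them, lower but within 2-fold in both.

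In TM-2, 1 of 23 members was higher (2.77%) and 0 lower (1.88%), with a median log2 ratio of -0.20 over the members and -0.01 over all genes. The higher member was Col12a1, from 67.1 to 137 CPM, a ratio of 2.04 (1.52 to 2.76). Col3a1 had 1155 and 670.3 CPM there, a ratio of 0.581. TM-2 was the smallest of the meshwork classes, with 190 and 257 cells.

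In uveal meshwork, 2 of 27 members were higher (2.06%) and 1 lower (1.49%), with a median log2 ratio of 0.19 over the members and 0.06 over all genes. Col14a1 had 11.97 and 31.0 CPM, a ratio of 2.59 (1.90 to 3.54), and Col4a3 10.1 and 21.4 CPM, a ratio of 2.12 (1.49 to 3.03). Col15a1, a collagen of the zone between basement membrane and matrix, had 27.3 and 12.4 CPM, a ratio of 0.456 (0.318 to 0.641). All 3 were at low levels, and Col23a1, the class's most characteristic collagen, had a ratio of 0.889.

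In fibroblasts, 4 of 30 members were higher (4.84%) and 4 lower (6.09%), with a median log2 ratio of 0.03 over the members and -0.02 over all genes. Col6a5 went from 43.4 to 153 CPM, a ratio of 3.54 (2.96 to 4.25), and was seen in 41 of 433 control and 196 of 962 NC-Foxc2-/- cells. Col8a1 had 24.4 and 50.5 CPM, a ratio of 2.07 (1.61 to 2.68), and Col4a5 33.4 and 67.9 CPM, a ratio of 2.03 (1.64 to 2.53). The lower members were all from outside the fibrillar group. Col23a1 went from 177 to 31.3 CPM, a ratio of 0.177 (0.149 to 0.209), with 160 of 433 and 105 of 962 cells holding it. Col18a1 went from 101 to 32.9 CPM, a ratio of 0.327 (0.272 to 0.391), and Col4a4 from 28.3 to 12.1, a ratio of 0.426 (0.309 to 0.586). Col11a2 (higher) and Col9a1 (lower) passed with fewer than 100 UMIs. The main fibroblast chain Col3a1 had a ratio of 0.734 (0.726 to 0.742). The class's own marker list, Pi16, Clec3b, Cd34, Mfap5 and Tnxb, summed to 10605 CPM in the control and 6843.5 CPM in the NC-Foxc2-/- library, none at 0. Pi16 itself, with 1918 and 2131 CPM, did not share the fall of this sum.

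The mix of rebuilt clusters within TM-3 and fibroblasts differed between the libraries, and so ratios were also taken within clusters, a choice made after seeing the data. Cluster 3, led by Sfrp4, Cxcl5, Epyc, Sfrp2 and C3, held 13.8% of control and 37.1% of NC-Foxc2-/- TM-3 cells, and 43.4% and 72.0% of fibroblasts. Most other TM-3 cells were in cluster 4, which had Myoc, and most other fibroblasts in cluster 15, which had Pi16 and Clec3b. Col14a1 in TM-3 had a ratio of 2.52 (2.13 to 3.01) within cluster 3 and 1.97 (1.72 to 2.26) within cluster 4, so it was above 1 in both. Col12a1 had 1.56 and 1.42, and Col3a1 1.22 and 1.24. Col1a1 had 0.852 (0.834 to 0.870) within cluster 3 and 1.34 (1.31 to 1.37) within cluster 4, both below its ratio over the whole class. For Col11a2 the ratio within cluster 3 was 1.28, where it had 84.5 and 108 CPM, so that the 3-fold difference of the whole class was not found within this cluster. Col6a5 had 17.2 and 58.0 CPM within cluster 3, from 11 control and 128 NC-Foxc2-/- UMIs. Its ratio there was 3.37 (1.82 to 6.91), against 12.3 over the whole class. Weighted to the cluster mix of the control, the TM-3 ratios were 2.09 for Col14a1, 1.32 for Col11a2 and 1.32 for Col5a3.

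In fibroblasts, Col23a1 was lower within both clusters, with ratios of 0.243 (0.196 to 0.300) in cluster 3 and 0.0738 (0.0472 to 0.111) in cluster 15. Col18a1 had 0.642 (0.482 to 0.861) and 0.192 (0.136 to 0.265). Col6a5 had 1.74 (1.45 to 2.11) in cluster 3, from 101 to 177 CPM, and 18.9 (10.0 to 40.1) in cluster 15, from 5.06 to 95.6 CPM. These 3 members kept their direction within both clusters, but by unequal amounts. The fibril chains parted by cluster: Col3a1 had 0.976 and 0.572, and Col1a1 1.04 and 0.639. In cluster 3 they were thus close to 1, and in cluster 15 below it. Col4a5, with 3.22 and 0.889, was higher in cluster 3 alone.

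**Figure D5:**
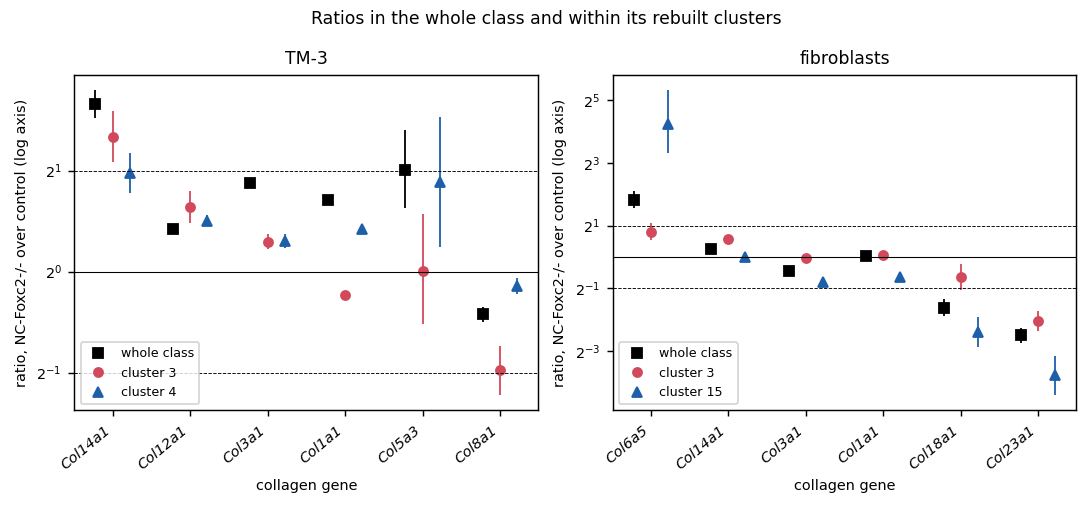
Ratio of CPM, NC-Foxc2-/- over control (log2 axis, exact 95% intervals for counting error), of 6 members in TM-3 and 6 in fibroblasts, for the whole class and within its rebuilt clusters. Col14a1 in TM-3 is above 1 in the class and in both clusters, Col1a1 in TM-3 is below 1 in cluster 3 and above it in cluster 4, and Col23a1 in fibroblasts is far below 1 throughout.

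In pericyte-like cells, the mural cells of small vessels, 5 of 23 members were higher (5.60%) and 2 lower (3.65%), with a median log2 ratio of 0.38 over the members and 0.07 over all genes. The groups went apart, with a median of 0.75 in the fibrillar and -0.38 in the basement membrane members. Col1a1 had 397 and 1201 CPM, a ratio of 3.02 (2.78 to 3.30), but 27 of the 538 NC-Foxc2-/- cells held 69.2% of its UMIs, and without called doublets the ratio was 1.70. With called doublets left out, 1 member in place of 5 was higher in this class. Col6a3 had a ratio of 2.11 (1.61 to 2.80) and 1.49 without doublets, Col12a1 of 2.09 (1.58 to 2.79) and 1.73, and Col5a3 of 2.38 (1.605 to 3.61). Fibroblast markers moved the same way, from 106 to 250.3 CPM summed over 5 genes, with Cd34 at 0 in the control, and keratocyte markers from 161 to 228 CPM. Their part in the ratios was not tested. Col8a1 was lower, from 169 to 53.4 CPM, a ratio of 0.317 (0.255 to 0.391), and was seen in 29.5% and 10.6% of the cells. Col4a4 (lower) and Col11a1 (higher) passed with fewer than 100 UMIs. Col4a1 and Col4a2, the chains of the vessel's own basement membrane, had ratios of 0.755 and 0.766.

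In smooth muscle-like cells, 2 of 25 members were higher (1.61%) and 3 lower (1.84%), with a median log2 ratio of 0.27 over the members and -0.01 over all genes. Col14a1 had 26.8 and 64.0 CPM, a ratio of 2.39 (1.82 to 3.15) and 1.76 without doublets. Col1a1 had 529.6 and 1159 CPM, a ratio of 2.19 (2.06 to 2.33) and 1.79 without doublets. Both thus came within 2-fold once called doublets were left out, and the fibroblast and keratocyte marker lists went from 162 to 237 and from 196 to 312 CPM, none at 0. The part of such cells in the ratios was not tested beyond these values. The lower members, Col4a3, Col4a4 and Col10a1, each had fewer than 100 UMIs.

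In Schwann-like cells, the glia of the peripheral nerve, 0 of 22 members were higher (2.23%) and 1 was lower (1.84%), with a median log2 ratio of 0.21 over the members and 0.02 over all genes. The lower member was Col20a1, the FACIT collagen with its highest level in this class, with 269.7 and 124 CPM and a ratio of 0.461 (0.385 to 0.552). Col18a1, also highest there, had 457 and 488 CPM, a ratio of 1.07.

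In endothelial cells, 1 of 18 members was higher (3.09%) and 1 lower (4.03%), with a median log2 ratio of 0.32 over the members and -0.08 over all genes. Col3a1 had 50.9 and 103 CPM, a ratio of 2.03 (1.59 to 2.59) and 1.71 without doublets. It was seen in 19.3% of control and 19.8% of NC-Foxc2-/- cells, so the share of cells with it hardly differed. Its UMIs lay in few cells: 11 of 207 control cells held 61.9% of them, and 13 of 253 NC-Foxc2-/- cells 73.6%. Col23a1 had 50.01 and 15.1 CPM, a ratio of 0.302 (0.189 to 0.466), but 1.06 after each cell was thinned to 1000 UMIs. The study's subcluster of Schlemm's canal and lymphatic endothelium, with Col23a1 at 107 CPM, had 84 control and 23 NC-Foxc2-/- cells. Col4a1 and Col4a2, the main basement membrane chains, had ratios of 0.876 and 0.856 in CPM over the whole class. Per cell, Col4a1 had 12.6 and 6.98 UMIs (medians 7 and 4), at median depths of 7882 and 5452 UMIs. The mix of subclusters differed too. The blood endothelial subcluster BEC-5 had 43 control and 14 NC-Foxc2-/- cells, and BEC-2 had 12 and 59. Its part in the ratios was not tested.

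Corneal epithelial-like cells had the largest count, 10 of 19 members higher (2.23%) and 1 lower (1.78%), with a median log2 ratio of 1.12 over the members and -0.02 over all genes. The higher members were those of the stroma, 5 of 5 fibrillar members and 3 of 4 network members, and 0 of 5 members of the basement membrane and its zone was higher. Col5a1 had 2.74 and 18.4 CPM (ratio 6.72, 4.79 to 9.55), Col6a1 4.95 and 26.6 (ratio 5.37, 4.14 to 7.02), and Col1a1 50.2 and 216 (ratio 4.31, 3.96 to 4.70). The 3 others named by the rule were Col6a2, Col6a3 and Col12a1, with ratios of 4.51, 3.87 and 3.44, and Col1a2, Col5a2, Col3a1 and Col16a1 completed the count with ratios from 2.17 to 3.28. All of these levels were a small part of those in keratocyte-like cells, and the free Col1a1 RNA of erythrocyte-like cells was higher in the NC-Foxc2-/- library as well (113 and 287 CPM). With the free RNA of each library subtracted, the ratio of Col1a1 was 5.47. Lum and Kera, genes of the stroma, went the same way, from 6.67 to 27.9 CPM and from 4.03 to 9.13 CPM, and the fibroblast list from 1.29 to 8.32 CPM, none of its 5 genes at 0. The part of stromal RNA was not tested beyond these values. Col8a1 was the lower member, from 16.6 to 6.52 CPM, a ratio of 0.394 (0.276 to 0.549). Col17a1, the class's own collagen, had 932 and 1442 CPM, a ratio of 1.55 (1.51 to 1.59).

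Read across the 11 classes by member, Col12a1 had a ratio above 1 in 11 of 11, from 1.34 to 3.44, and passed 2-fold in 3. Col14a1 passed it in 4 of 10, with ratios from 0.917 to 3.16, and Col6a5 in the 3 classes where it had 50 UMIs. In TM-1 (8 control and 111 NC-Foxc2-/- UMIs) and TM-3 (11 and 161), Col6a5 reached 50 UMIs only through the NC-Foxc2-/- library. Passing 2-fold was thus nearly fixed in advance there. Col1a1 was above 1 in 10 of 11 classes, from 0.797 to 4.31. Col5a1 was above 1 in 10 of 11 as well, and Col6a1 and Col6a3 in 9 of 11. The classes share the same pair of libraries and their free RNA. An erythrocyte-like cell held on average 0.0133 Col12a1 UMIs in the control and 0.0835 in the NC-Foxc2-/- library, and 0.0185 and 0.0866 of Col5a1. Free RNA came to 5.02% and 29.7% of the Col12a1 level of endothelial cells, and to 0.0422% and 0.167% in keratocyte-like cells. Its part in these counts of classes was not tested. Col4a1 and Col4a2 passed 2-fold in no class, with ratios from 0.755 to 1.59 and from 0.728 to 1.54. Col17a1 had ratios from 1.17 to 1.55 in the 4 classes where it was measured.

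The enzymes and chaperones that make collagen, a list of 31 genes, were compared in the same way. They had their highest level mainly where the members had theirs, 10 of the list in keratocyte-like cells and 8 in fibroblasts. Serpinh1, the collagen chaperone Hsp47, had 1326 CPM in keratocyte-like cells. Of 248 pairs of gene and class with at least 50 UMIs, 6 were higher and 12 lower, where 2.92% and 2.49% of the pairs of all genes were. In keratocyte-like cells 0 of 29 passed 2-fold in either direction, in TM-1 0 of 21. P4hb, the disulfide isomerase subunit of prolyl 4-hydroxylase, went from 229 to 362 CPM in keratocyte-like cells, and Pcolce, the enhancer of procollagen cleavage, from 997 to 719 CPM. Loxl2 and Pcolce2 had the next highest ratios there, 1.58 and 1.57, and P3h4 and P4ha3 the lowest, 0.632 and 0.646.

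In TM-3, Pcolce2 was higher, from 11.7 to 27.4 CPM, and P4ha2, a catalytic subunit of prolyl 4-hydroxylase, was lower, from 73.7 to 33.2, a ratio of 0.450. In fibroblasts Plod2, a lysyl hydroxylase of the telopeptides that form cross-links, had 32.5 and 79.6 CPM, a ratio of 2.45, and P4ha2, P3h4 and Adamts14 were lower with 0.429, 0.423 and 0.235. In TM-2 Serpinh1 was lower, from 723 to 323 CPM, a ratio of 0.447, as was P3h1. Pcolce was lower in pericyte-like (0.449), smooth muscle-like (0.471) and corneal epithelial-like cells (0.493), where Loxl1 (2.25), Adamts2 (3.21) and P3h3 (3.47) were higher in turn. Fkbp10 was lower in uveal meshwork (0.472) and endothelial cells (0.425), Lox was higher in the latter (2.49), and P3h3 was lower in Schwann-like cells (0.479).

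Plod2 was also among the 3 highest ratios of the list in TM-1 (1.29), TM-2 (1.601), uveal meshwork (1.65), smooth muscle-like (1.98), Schwann-like (1.89) and endothelial cells (1.92), within 2-fold in each.

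Within the list, P4hb, Mia3 and P4ha1 had ratios above 1 in 11 of 11 classes, P4hb from 1.09 to 1.64. Fkbp10, a collagen prolyl isomerase, had ratios below 1 in 10 of 10 classes, from 0.425 to 0.788, P3h4 in 11 of 11, from 0.423 to 0.877, and Colgalt1, which adds galactose to hydroxylysine, in 11 of 11, from 0.597 to 0.987. Serpinh1 was below 1 in 10 of 11. The list therefore held no common direction. Among the receptors for collagen, 55 pairs of gene and class were measured, of which 3 were higher (Itga2, Itga11 and Mrc2) and 1 lower (Itga11, in fibroblasts), to be read against the same shares of all genes. Itgb1, the shared beta chain of the collagen integrins, had ratios from 1.11 to 1.66 in the 11 classes.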

How the data were processed

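Single cells of anterior segments without iris were measured by droplet-based 3′ RNA sequencing, with 1 library of pooled tissue for each condition. The counts that the authors deposited are UMIs for each gene in each barcode, made by Cell Ranger 4.0.0 against mm10 and not normalized. Following the study's methods, cells above 8% mitochondrial UMIs were removed. The study also removed clusters formed by doublets, whereas here the doublets that Scrublet called (in scanpy) stayed in and were left out as an alternative. Cells were assigned to the study's 3 trabecular meshwork classes (TM), uveal meshwork, fibroblasts and endothelial cells by matching the study's source data to the counts, within 0.55 of the last printed digit. All kept cells were also clustered without the collagen genes with scanpy 1.11.5 and leidenalg 0.10.2 (14039 genes with a mean of at least 0.005 UMIs, counts scaled to 10000 per cell, 2322 variable genes, 15 principal components, 25 neighbors, resolution 0.8, seed 1), which gave 25 clusters, and cells outside the study's classes took the names these clusters got from fixed marker lists.

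For each class and library the UMIs of a gene were summed and divided by the class total (CPM), with exact Poisson 95% intervals. Ratios have exact conditional binomial intervals and shares exact binomial intervals (Clopper-Pearson), computed with SciPy 1.17.1 and NumPy 2.4.6 under Python 3.11.15. With 120961479 and 95704746 UMIs, precision was limited by the size of the class. The study's samples were grouped by genotype, and with 1 library per condition no p-value was computed. The members, gene lists and the rule for names were chosen with earlier results of these data known. In each group the 6 members with the most UMIs were described for their levels, and within a class the called members with at least 100 UMIs, up to 6 in each direction, were named. Of the synthesis list the rule takes the 3 highest and 3 lowest ratios per class with at least 100 UMIs, of which those past 2-fold, those of keratocyte-like cells and Plod2 are given. Other names were chosen after their values were seen. Glycine repeats were read from the longest open reading frame of GENCODE vM21 transcripts in place of reference proteins. Alternatives were thinned cells, other UMI minimums, resolutions and mitochondrial limits, doublets or free RNA removed, and rebuilt classes.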

Additional observations from a re-analysis of the deposited data

How the results depend on the processing

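No paired analysis was possible because each condition is 1 library. Of 202 recomputed counts, which cover called members in uveal meshwork, fibroblasts, keratocyte-like cells, the 3 TM classes and all compared classes together, and members with an unchanged highest class, 167 stayed within 1.5 times the value reported and 35 moved. With cells thinned to 1000 UMIs, keratocyte-like cells had 0 higher and 0 lower, TM-2 0 higher and 1 lower, TM-3 1 lower, uveal meshwork 1 higher and 0 lower, fibroblasts 2 higher and 2 lower, and all classes together 15 higher and 5 lower. With a minimum of 20 UMIs, keratocyte-like cells had 2 higher and 2 lower, TM-2 2 lower, uveal meshwork 3 lower, fibroblasts 7 higher and all classes 27 lower, and with a minimum of 100 UMIs all classes had 11 lower. With free RNA subtracted TM-2 had 0 higher. With rebuilt classes TM-1 had 2 lower, TM-2 2 higher and 2 lower, TM-3 1 higher and 1 lower, uveal meshwork 0 higher and fibroblasts 1 higher, where TM-1 and TM-2 are a single beam-like cluster. At resolution 0.4 keratocyte-like cells had 2 higher, and at a mitochondrial limit of 5% uveal meshwork had 1 higher. Weighted to the control mix of clusters, TM-2 had 2 higher, TM-3 3 higher and 1 lower, and fibroblasts 1 higher. Without cluster 3, TM-3 had 2 higher and 1 lower and fibroblasts 1 higher. For the other 5 classes, added after seeing the data, 112 of 138 counts stayed and 26 moved: without doublets pericyte-like cells had 1 higher in place of 5, smooth muscle-like cells 1 higher and 1 lower in place of 2 and 3, and corneal epithelial-like cells 2 lower in place of 1, and thinning left corneal epithelial-like cells 2 higher in place of 10. The settings with weighting, without cluster 3 and without shared barcodes were chosen after seeing the data.

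3 named ratios turned direction: Col11a2 in TM-3 was 0.854 and Col4a5 in fibroblasts 0.884 with rebuilt classes, and Col23a1 in endothelial cells 1.06 when thinned. Of 37 named ratios, 33 stayed past 2-fold with free RNA subtracted, 31 without doublets, 27 when thinned, 31 when weighted, 25 of 36 with rebuilt classes and 32 of 36 without cluster 3. The cause of these moves was not tested, except that thinning and a higher minimum leave fewer UMIs. The class with the highest level was the same under every setting for 31 of 42 members, and taking UMIs per cell changed it for 7. With 1 library per condition, differences between mice and between library preparations cannot be told apart from genotype. Among genes of the sex chromosomes, the paper lists Xist as higher and Ddx3y as lower in TM-1 cells of NC-Foxc2-/- mice. Col4a5 and Col4a6 lie on chromosome X, and the part of the sex of the mice in their ratios was not tested.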

Other observations

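Rebuilt clusters that could not be named held much collagen message, though less than keratocyte-like cells. Cluster 10 (771 cells, led by Myod1, Gal and Mylpf) had 78292 CPM over all members, cluster 13 (677 cells, led by Hspa1a, Coch and Tnc, with 38.7% called doublets) 98337 CPM, and the 45 cells of cluster 3 outside the study's classes 99522 CPM. Their Col1a1 levels were close, at 40146, 45777 and 43295 CPM, whereas their Col3a1 levels were 925, 1411 and 14637 CPM.

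Among the study's endothelial subclusters, Col4a1 ran from 633 to 1548 CPM over both libraries. The highest was in the subcluster the study named for the NC-Foxc2-/- mice, with 0 control and 22 NC-Foxc2-/- cells. Col15a1 stood at 407 CPM in the blood endothelial subcluster BEC-1 and at 79.8 CPM in Schlemm's canal and lymphatic endothelium. Col17a1, otherwise a collagen of the epithelia, stood at 193 CPM in BEC-4, which held 86 of the 95 Col17a1 UMIs of the endothelial class. Krt12, a keratin of the corneal epithelium, stood at 203 CPM over all endothelial cells and at 50.8 CPM in erythrocyte-like cells. The part of epithelial RNA in the Col17a1 level was not tested.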
